A study of Mus musculus with 5 samples.

Results

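The genes described here take up fatty acids and oxidise them in mitochondria. They were measured in whole hearts of 5 wild-type mouse embryos at E12.5, each hybridised to its own Affymetrix 430A array. The list names 35 genes, chosen for their known role in lipid uptake, the carnitine shuttle, beta oxidation or its regulation. Earlier results of these data were known when it was drawn up. A probe set, the group of short oligonucleotides that reads 1 transcript, counted for a gene where the platform annotation gives it that single symbol. By this rule 32 of the 35 genes had 60 probe sets, of 12393 genes and 20380 probe sets in all. The labels give a 129P2/OlaHsd strain background crossed back to C57BL/6 for 2 generations, no treatment and no second group. Replicate numbers run from 6 to 10 and name the hearts below. Acsl1 and Acsl3, which activate fatty acids, had no probe set under their own symbol, and the probe set of Cpt1b, the muscle form of carnitine palmitoyltransferase, carries 3 symbols. These 3 genes were not analysed here.

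Fatty acids reach the myocyte from lipoproteins and albumin, are bound by small carrier proteins in the cytosol and are activated to acyl-CoA. The carnitine shuttle moves them across the inner mitochondrial membrane, where repeated rounds of dehydrogenation, hydration, a further dehydrogenation and thiolysis release acetyl-CoA, and electrons pass through the electron transfer flavoprotein to the respiratory chain. The adult heart draws most of its energy from this route, whereas the embryonic heart is known to rely largely on glucose and lactate and to raise fatty acid oxidation around and after birth.

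Signal above background was present for nearly the whole route. Of the 32 measured genes, 29 (90.6%) lay above the background of their array in every heart, which is called detected below, against 51.9% of all 12393 genes. The background of an array is the 95th percentile of 61 genes of unrelated tissues such as lens, retina, testis and pancreas. Every measured gene of uptake (5 of 5), the carnitine shuttle (4 of 4), the acyl-CoA dehydrogenases (5 of 5), the later steps (10 of 10) and electron transfer (3 of 3) was detected. The exceptions were the activating enzyme Acsl4, above background in 4 hearts, and the thioesterase Acot2 and the transcription factor Ppara, above it in none (31.4% of all genes). Without heart 7, which resembled the others least, 30 of 32 were detected, Acsl4 among them. In all, 26 of the 32 genes lay more than 1 log2 unit above background in every heart, a margin held by 35.5% of all genes. Detection sets probe sets of different genes against 1 threshold and so also depends on how strongly a probe set responds.

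**Figure D1:**
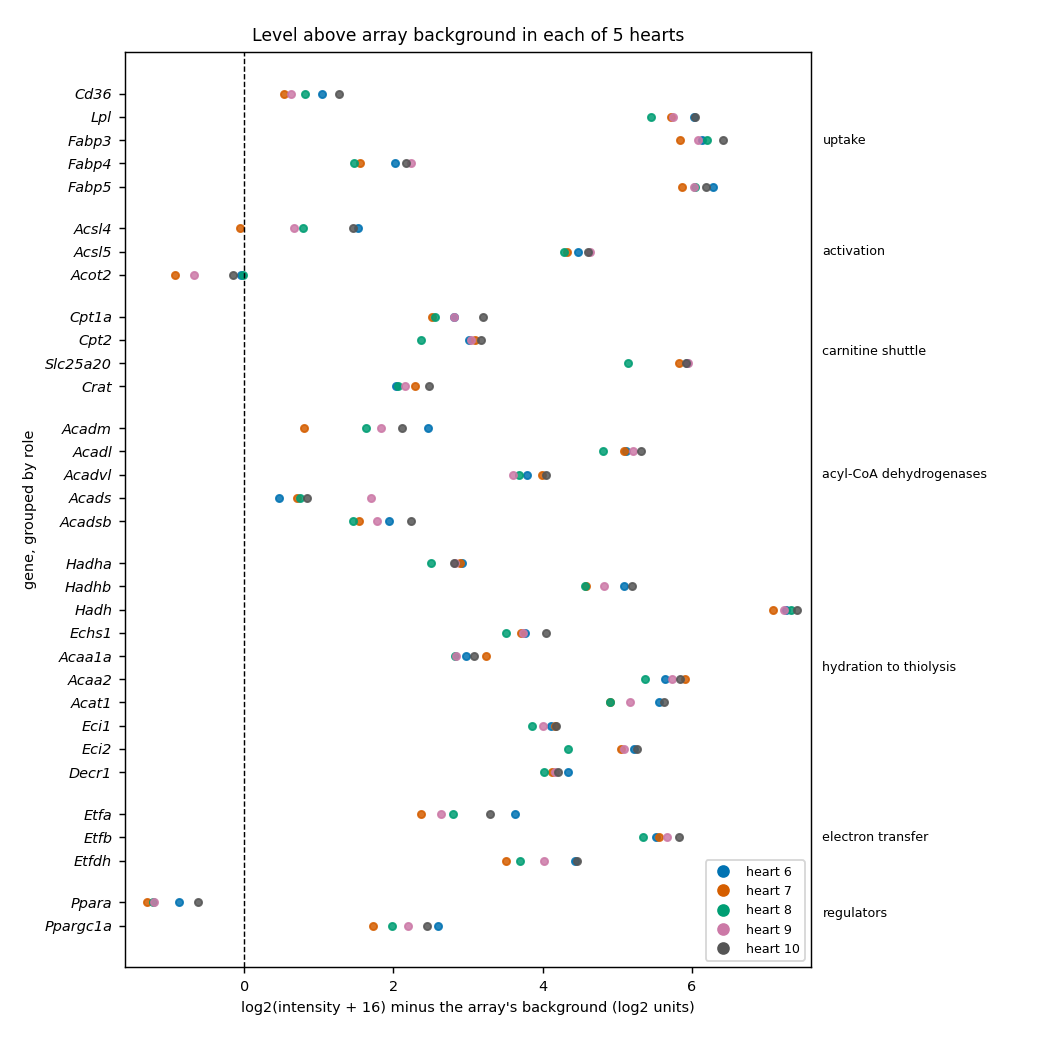
Level of each of the 32 measured genes in each of 5 hearts (coloured points), as log2(intensity + 16) minus the background of the same array, with genes grouped by role; the dashed line is the background. All points of 29 genes lie to its right, heart 7 of Acsl4 lies just to its left, and all 5 points of Acot2 and Ppara lie to its left.

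All levels below are log2(intensity + 16), given for hearts 6, 7, 8, 9 and 10 in that order and then as mean ± SD (n = 5), and levels of different genes are not compared. Unless another probe set is named, the level and the order of the hearts are those of the probe set used for the gene. The backgrounds on this scale were 5.08, 5.46, 5.45, 5.31 and 5.08. Trimmed means of the deposited intensities were 150.08 throughout. The label heart was checked against cardiomyocyte markers, of which 15 of 15 were detected, among them Tnnt2 at 13.00 ± 0.15, Tnni1 at 11.91 ± 0.18 and Tnnc1 at 12.62 ± 0.14. Their summed intensity was lowest in heart 6 (66449.5) and lay between 73164.6 and 82556.4 in the others. Of other cell types, 9 of 12 endothelial, 6 of 12 macrophage, 7 of 11 erythroid and 5 of 12 skeletal muscle markers were detected. For liver it was 1 of 12 and for adipocytes 0 of 7. The liver marker detected was Ttr (5.95 ± 0.24), while Afp (4.62 ± 0.28) and Alb (4.63 ± 0.49) were above background in no heart. The skeletal muscle markers detected were Acta1, Ckm, Tnnt3, Tnni2 and Mylpf. Myod1 (4.36 ± 0.26), Myog (4.54 ± 0.27), Myf5 (4.15 ± 0.16), Tnnc2, Myh1 and Myh4 of that list were above background in no heart. The shares of macrophage (50%) and skeletal muscle markers (41.7%) lay below the 51.9% of all genes. Heart 7 had the lowest median correlation with the others across genes (0.969, against 0.976 to 0.980) and the highest 3' to 5' ratio of the Gapdh control (5.69, against 2.50 to 3.55). The same ratio of the actin control was highest in heart 8 (4.48) and second highest in heart 7 (4.27), the other hearts lying between 3.20 and 3.67. Whole hearts mix several types of cell, and fewer cells of a type and less RNA per cell cannot be told apart.

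The promoters of the members were searched for common promoter motifs. RefSeq start sites on GRCm38.p6 were available for 25 of the 32 genes, and the 250 bases before each start were searched on both strands. The GC box GGGCGG was found in 16 of 25 (64%), against 59.6% of the promoters of detected genes, 51.3% of those of measured genes and 32.7% of all 32851 promoters. The CCAAT box was found in 10 (40%, against 33.8% of all promoters and 35.5% of those of detected genes) and the TATA box TATAAA in none (12.4% of all promoters, 6.45% of those of detected genes). The nuclear receptor motif AGGTCA was found in 5, Acadm, Acadvl, Cd36, Cpt1a and Echs1 (20%, against 14% of all promoters and 10.8% of those of detected genes), and the NRF1 site, GCGC and TGCGC with 1 base between, in Etfb, Etfdh and Ppara (12%, against 3.74% of all promoters and 9.17% of those of detected genes). The repeat of AGGTCA with 1 base between, which PPAR binds with RXR, and TNAAGGTCA, bound by oestrogen-related receptors, were found in none (0.0335% and 1.14% of all promoters). Both hold AGGTCA within them. No binding was measured. Shown first is the stretch ahead of Hadhb, which lies head to head with Hadha. The starts of these genes, which encode the subunits of 1 enzyme, are 272 bases apart. Their windows share 228 bases. The second GC box marked runs past the end of the Hadha window, which holds 1 GC box. Etfa and Etfb follow as subunits of 1 protein whose levels ran in different orders over the hearts, Acadm as a member with 1 low heart, and Ppara as the regulator below background. Capitals mark GC boxes, CCAAT boxes, AGGTCA and NRF1 sites on either strand. The windows are chr5:30155003-30155252 (+), chr9:55512244-55512493 (-), chr7:43443822-43444071 (+), chr3:153944644-153944893 (-) and chr15:85735526-85735775 (+) of GRCm38.p6, and each line is written 5′ to 3′ toward the start.
Hadhb, shared with Hadha: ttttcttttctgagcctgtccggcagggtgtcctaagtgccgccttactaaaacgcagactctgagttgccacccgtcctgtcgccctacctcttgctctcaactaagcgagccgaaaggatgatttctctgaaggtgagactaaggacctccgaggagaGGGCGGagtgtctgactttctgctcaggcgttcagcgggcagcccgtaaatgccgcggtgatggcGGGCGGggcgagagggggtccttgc
Etfa: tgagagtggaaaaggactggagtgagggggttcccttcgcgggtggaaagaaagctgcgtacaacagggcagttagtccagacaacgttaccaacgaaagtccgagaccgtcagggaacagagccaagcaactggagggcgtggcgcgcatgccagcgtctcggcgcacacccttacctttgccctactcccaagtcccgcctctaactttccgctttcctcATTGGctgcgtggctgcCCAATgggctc
Etfb: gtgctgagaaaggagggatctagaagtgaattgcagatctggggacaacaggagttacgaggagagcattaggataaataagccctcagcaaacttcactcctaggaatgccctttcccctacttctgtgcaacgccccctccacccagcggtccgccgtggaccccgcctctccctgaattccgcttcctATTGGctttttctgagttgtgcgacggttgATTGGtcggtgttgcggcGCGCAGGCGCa
Acadm: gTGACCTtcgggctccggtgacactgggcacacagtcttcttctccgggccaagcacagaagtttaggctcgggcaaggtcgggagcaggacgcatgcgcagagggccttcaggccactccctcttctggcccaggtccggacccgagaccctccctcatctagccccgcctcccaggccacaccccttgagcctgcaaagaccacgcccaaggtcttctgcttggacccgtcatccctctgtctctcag
Ppara: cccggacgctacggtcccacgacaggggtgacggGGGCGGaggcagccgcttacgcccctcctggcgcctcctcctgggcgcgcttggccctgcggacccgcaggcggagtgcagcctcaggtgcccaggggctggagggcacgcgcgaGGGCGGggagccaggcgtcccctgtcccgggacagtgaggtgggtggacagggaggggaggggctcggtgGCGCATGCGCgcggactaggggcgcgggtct

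Uptake was represented by 5 detected genes, whose levels by the probe sets used differed little between hearts. Lpl, the lipoprotein lipase that frees fatty acids from circulating triglyceride, had levels of 11.11, 11.19, 10.91, 11.05 and 11.13 (11.08 ± 0.10). Its intensity in the highest heart was 1.21 times that in the lowest. Fabp3, the heart type fatty acid binding protein, had 11.22, 11.30, 11.65, 11.40 and 11.50 (11.41 ± 0.17), with heart 8 highest. Fabp5, the epidermal type carrier, had 11.37, 11.32, 11.49, 11.34 and 11.27 (11.36 ± 0.08), the smallest SD of the 32 members. Fabp4, the carrier known from adipocytes, capillary endothelium and macrophages, had 7.10, 7.02, 6.93, 7.55 and 7.25 (7.17 ± 0.24), with heart 9 highest. Cd36, a membrane protein that takes up fatty acids, had 6.13, 6.00, 6.26, 5.93 and 6.35 (6.14 ± 0.17). Its smallest margin over background was 0.54, in heart 7. Probe sets not used gave orders of the hearts that differed in part. The second detected probe set of Fabp4 was, like the used one, highest in heart 9 (6.97). A further Cd36 probe set was above background in 3 hearts and, like the used one, highest in heart 10. Another Cd36 probe set was highest in heart 9 and lowest in heart 10. The second probe set of Lpl was lowest in heart 7 (7.26), and that of Fabp5 was lowest in heart 8 (10.02).

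Fabp4, Cd36 and Lpl are also known from cells other than myocytes. Of the adipocyte markers, Adipoq (4.43 ± 0.26), Lep (4.17 ± 0.13) and Retn (4.41 ± 0.40) exceeded background in no heart, and the 7 measured markers had a summed intensity of 46.1 to 84.2 over hearts. The summed intensity of the 12 endothelial markers ranged from 2277.87 in heart 7 to 3360.99 in heart 10. Tek (9.84 in heart 7, 10.82 in heart 10), the strongest signal of the 12, weighed most in this sum. The markers did not share 1 order: Tek, Emcn, Flt1, Pecam1 and Cdh5 were lowest in heart 7, whereas Eng, Esam and Erg were highest there. Kdr (6.46 ± 0.31) was detected, whereas Pecam1 (4.89 ± 0.42) was above background in 1 heart and Cdh5 (4.83 ± 0.33) in none. The summed intensity of the 12 macrophage markers ranged from 644.438 in heart 6 to 1073.72 in heart 9, the heart with the highest Fabp4. It was nearly as high, 1048.29, in heart 7, where Fabp4 was the second lowest. Csf1r (8.35 ± 0.57) was detected, Cd68 (5.39 ± 0.05) was above background in 3 hearts, and Ptprc (4.76 ± 0.27) was below it in all. The part of these cells in the levels of Fabp4, Cd36 and Lpl was not tested.

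Among the genes that activate fatty acids, Acsl5 was clearly present and Acsl4 was not above background in every heart. Acsl5, an acyl-CoA synthetase, had 9.56, 9.79, 9.74, 9.94 and 9.69 (9.74 ± 0.14). Acsl4, a synthetase that prefers arachidonic acid, had 6.62, 5.41, 6.25, 5.97 and 6.54 (6.16 ± 0.49). Heart 7 was its low value, at -0.94 from the mean of the other hearts (6.34), and its intensity varied 3.11-fold. Acot2, a mitochondrial thioesterase that reverses activation, had 5.04, 4.53, 5.43, 4.64 and 4.93 (4.91 ± 0.36). In heart 8 it missed the background by -0.02. Acot2 belongs to a cluster of closely similar genes, so its probe set may not read it alone.

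The carnitine shuttle was detected in full apart from Cpt1b, which was not analysed. Cpt1a, the liver form of the outer membrane transferase and the step at which entry is controlled, had 7.89, 7.97, 8.01, 8.12 and 8.29 (8.06 ± 0.15). All 3 of its probe sets were detected, but the used one is of type _x_at, which can cross-hybridise. The probe set of type _at had 5.71 ± 0.20. The used one was lowest in heart 6, where the other of type _x_at was highest (7.92). Both probe sets not used were lowest in heart 9. Slc25a20, the carrier that exchanges acylcarnitine for carnitine, had 11.02, 11.29, 10.60, 11.25 and 11.00 (11.03 ± 0.28). Cpt2, which returns the acyl group to CoA in the matrix, had 8.09, 8.56, 7.82, 8.34 and 8.25 (8.21 ± 0.28). Both genes had heart 8 as their lowest and heart 7 as their highest value. The second detected probe set of Slc25a20 was also lowest in heart 8 (6.99) but highest in heart 9 (7.37), with 7.17 in heart 7. At heart 8, Slc25a20 lay at -0.55 and Cpt2 at -0.49 from the mean of the other hearts. Crat, a carnitine acetyltransferase that buffers acetyl-CoA, had 7.12, 7.76, 7.51, 7.46 and 7.56 (7.48 ± 0.23), with heart 6 lowest and heart 7 highest.

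The 5 acyl-CoA dehydrogenases, which open each round of oxidation, were all detected, and Acads and Acadm had the largest and the third largest SD of the members. Acadvl, for very long chains, had 8.88, 9.45, 9.14, 8.91 and 9.13 (9.10 ± 0.23), and Acadl, for long chains, had 10.21, 10.55, 10.26, 10.52 and 10.40 (10.39 ± 0.15). Both were highest in heart 7 and lowest in heart 6. Acadm, for medium chains, ran the other way, with 7.55, 6.26, 7.09, 7.14 and 7.19 (7.05 ± 0.48). Heart 7 lay at -0.98 from the mean of its other hearts (7.25), and the intensity of 60.8 there compared with 120.3 to 172.0 elsewhere. Acads, for short chains, had 5.55, 6.17, 6.20, 7.00 and 5.92 (6.17 ± 0.53), the largest SD of the members. Heart 9 lay 1.04 above the mean of the others (5.96), and its intensity of 112.4 compared with 30.9 to 57.3. Acadsb, for branched short chains, had 7.03, 7.00, 6.91, 7.09 and 7.31 (7.07 ± 0.15), read by an _x_at probe set alone. Acadm and Acads each rest on 1 probe set, so no second one could show the same hearts.

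The enzymes from hydration to thiolysis formed the largest group, with 10 of 10 detected and SDs between 0.10 and 0.28. Hadha and Hadhb, the subunits of the trifunctional protein of the inner membrane, are the head-to-head pair whose largely shared upstream stretch is printed above. Hadha had 8.00, 8.35, 7.96, 8.14 and 7.89 (8.07 ± 0.18) and Hadhb 10.18, 10.04, 10.02, 10.12 and 10.27 (10.13 ± 0.10). Heart 10 was lowest for Hadha and highest for Hadhb, within ranges of 0.46 and 0.25 log2 units. The second detected probe set of Hadhb, of type _x_at, was highest in heart 6 (10.00) and had 9.71 in heart 10, so the place of heart 10 for Hadhb rests on 1 of its 2 probe sets. Hadh, the matrix dehydrogenase for shorter chains, had 12.35, 12.55, 12.78, 12.55 and 12.49 (12.54 ± 0.15) by an _x_at probe set. Its _at probe set had 9.60 ± 0.24 and was also detected, as was another of type _x_at. The used one was lowest in heart 6, the _at one in heart 7 and the other in heart 9. Echs1, the matrix enoyl-CoA hydratase, had 8.85, 9.18, 8.97, 9.04 and 9.13 (9.03 ± 0.13).

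The thiolases, which split off acetyl-CoA, were all detected. Acaa2, the mitochondrial thiolase, had 10.73, 11.37, 10.82, 11.04 and 10.92 (10.98 ± 0.25). Heart 7 was highest by all 3 of its probe sets, at 0.49, 0.71 and 0.59 above the mean of the other hearts. Acaa1a, a peroxisomal thiolase, had 8.06, 8.70, 8.28, 8.14 and 8.16 (8.27 ± 0.26), and heart 7 was highest by both of its probe sets. These are of type _x_at, and Acaa1a has a close copy, Acaa1b, so they may read both genes. Acat1, which splits acetoacetyl-CoA and also serves ketone use, had 10.65, 10.36, 10.35, 10.48 and 10.70 (10.51 ± 0.16), with heart 10 highest. Its other probe sets, both detected, were highest in heart 7 (9.00, in a probe set of 8.79 ± 0.20) and in heart 9 (9.91, in one of 9.82 ± 0.05). The 3 probe sets of Acat1 thus disagreed on the highest heart.

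The auxiliary enzymes for unsaturated fatty acids were detected as well. Eci1, an isomerase that moves double bonds, had 9.20, 9.63, 9.31, 9.32 and 9.26 (9.34 ± 0.16), with heart 7 apart from the other hearts, which spanned 9.20 to 9.32. Eci2, the isomerase also found in peroxisomes, had 10.31, 10.51, 9.80, 10.40 and 10.34 (10.27 ± 0.28), with heart 8 apart at -0.59 from the mean of the others. Decr1, the dienoyl-CoA reductase, had 9.42, 9.59, 9.47, 9.48 and 9.29 (9.45 ± 0.11), with heart 7 highest. The second Decr1 probe set gave 7.88, 7.34, 8.19, 8.43 and 8.28 (8.02 ± 0.43), with heart 7 lowest. The probe sets of this gene thus disagreed on the place of heart 7.

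Electron transfer from the dehydrogenases was detected in all 3 genes, with unlike orders over the hearts. Etfa, the alpha subunit of the electron transfer flavoprotein, had 8.72, 7.83, 8.26, 7.95 and 8.38 (8.23 ± 0.35). Etfb, the beta subunit, had 10.61, 11.03, 10.80, 10.97 and 10.90 (10.86 ± 0.17). Heart 7 was the lowest for Etfa and the highest for Etfb, and heart 6 the highest for Etfa and the lowest for Etfb. Etfdh, which passes the electrons to ubiquinone, had 9.51, 8.97, 9.15, 9.33 and 9.54 (9.30 ± 0.24), with heart 7 lowest as for Etfa. Each of these genes has 1 probe set.

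Of the regulators on the list, the coactivator was detected and the nuclear receptor was not. Ppargc1a, a coactivator of mitochondrial genes, had 7.69, 7.19, 7.44, 7.50 and 7.53 (7.47 ± 0.18). Of its 5 probe sets, 4 were detected and 1 was above background in 3 hearts. The used probe set and the one of type _x_at were lowest in heart 7. The other detected ones were lowest in heart 9 (6.39 and 6.18), so the probe sets disagreed on the lowest heart. Ppara, the receptor that drives fatty acid oxidation genes in adult heart and liver, had 4.21, 4.16, 4.24, 4.10 and 4.47 (4.23 ± 0.14), on 1 probe set. It lay between -1.30 and -0.61 log2 units from background, so its level has only an upper bound here. Its partner Rxra was detected (7.50 ± 0.30), while the related receptors Pparg (4.27 ± 0.18) and Ppard (4.39 ± 0.31) were below background in every heart. Of 19 measured genes in a list of further regulators, 10 were detected (52.6%), near the 51.9% of all genes. Rxrg and Esrrg were the remaining genes of that list below background in every heart.

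No member was called as more variable between hearts than genes of its level. The variance test is an F test of each gene's variance over the 5 hearts against limma's prior variance, which follows the mean level. It was run with Benjamini-Hochberg adjustment over all 12393 genes. It called 0 of 32 members (adjusted p from 0.960 to 1) and 5 genes in all, or 0.0403%. At an unadjusted p under 0.05 there was 1 member, Acads (unadjusted p of 0.0386, variance 3.57 times the prior, adjusted p = 0.960), against 4.45% of all genes. Acsl4 and Acadm followed, with variances 3.01 and 2.89 times the prior. The members' median variance ratio was 0.679, against 0.925 for all genes and 0.863 for detected genes, and 22 of 32 lay under 1, against 53.8% of all genes. Their median SD was 0.18, against 0.26 for all genes and 0.24 for detected genes. A p that misses the threshold with 5 hearts does not show that a gene's level was equal in them.

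**Figure D2:**
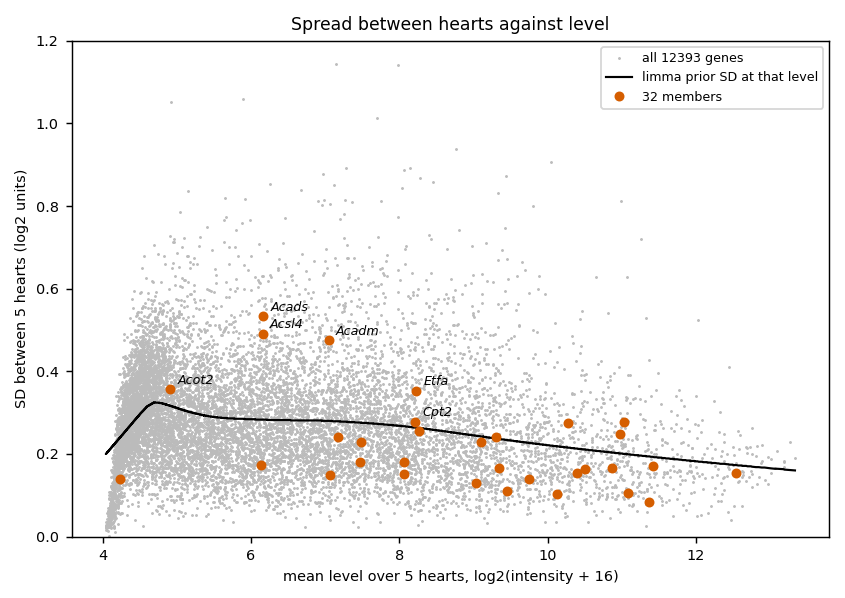
SD between 5 hearts against mean level, both in log2 units, for all genes (grey), for the 32 members (orange) and limma's prior SD at each level (line); 5 genes lie above the axis limit of 1.2. Of the members, 22 lie below the line, and Acads, Acsl4 and Acadm have the largest SDs.

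Which heart was highest or lowest was counted after the values had been seen, as a description. Among the 29 detected members, heart 7 was highest for 14 (48.3%), against 30.8% of all detected genes, and lowest for 4 (13.8%), against 28.6%. Heart 6 was lowest for 13 (44.8%), against 23.2%. Of the 10 enzymes from hydration to thiolysis, 7 were highest in heart 7, namely Hadha, Echs1, Acaa1a, Acaa2, Eci1, Eci2 and Decr1. The 4 members lowest in heart 7 were Acadm, Etfa, Etfdh and Ppargc1a. When all probe sets of a gene were averaged, heart 7 was highest for 10 of 29 (34.5%, against 30.0% of all detected genes) and heart 6 lowest for 9 (31.0%, against 20.9%). The count for heart 7 then lay near that of all genes. Without _x_at and _s_at probe sets, heart 7 was highest for 13 of 27 (48.1%, against 30.3%) and heart 6 lowest for 9 (33.3%, against 22.2%). Over hearts, the median deviation of detected members from their own means ran from -0.07 in heart 6 to 0.05 in heart 10, against -0.01 and 0.01 for all detected genes.

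Other measures moved over the same hearts. Heart 6 had the lowest summed intensity of cardiomyocyte markers. In heart 7 the Gapdh control ratio was the highest, though not that of actin, which was highest in heart 8. Also highest in heart 7 was the summed intensity of 11 erythroid markers, 27945.8, against 18546.4 to 26603.1 in the others. Among these, Hba-x (12.44 ± 0.41), Hbb-bh1 (11.56 in heart 9 to 12.41 in heart 7) and Hbb-y (13.10 ± 0.21) were detected. The part of these measures in the order of the hearts was not tested.

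**Figure D3:**
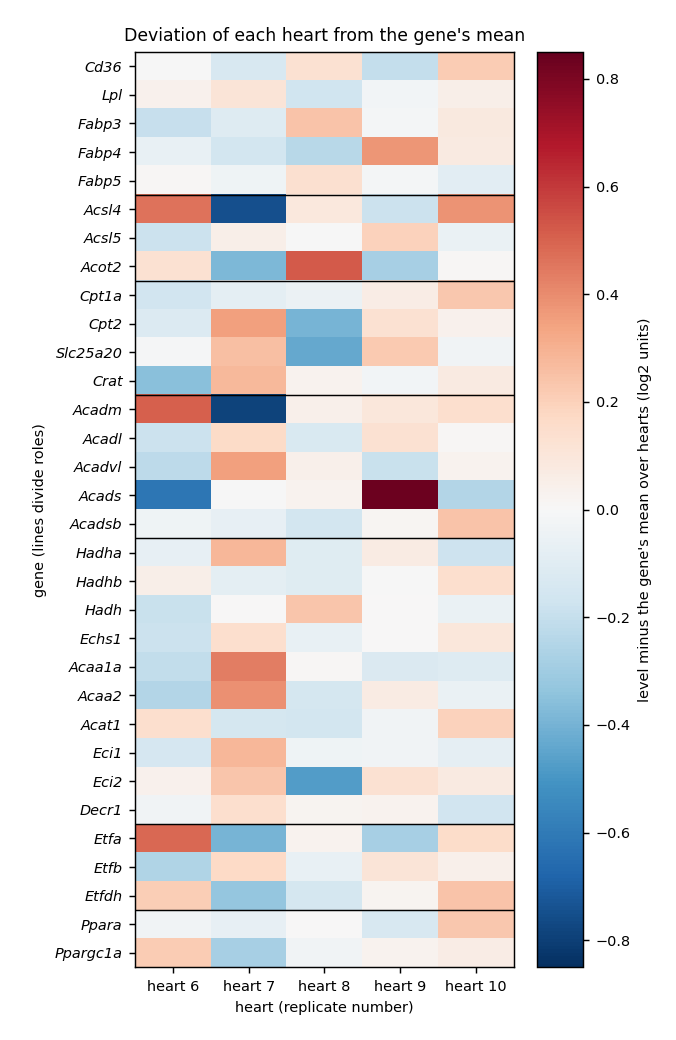
Deviation of each heart (columns) from the mean of the gene over 5 hearts, in log2 units, for 32 genes (rows) in order of role; red is above the mean and blue below. Heart 7 is red for most enzymes from Hadha to Decr1 and blue for Acsl4, Acadm, Etfa, Etfdh and Ppargc1a, and the darkest cells are Acads in heart 9 (red) and Acadm in heart 7 (blue).

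Probe sets of 1 gene did not always give the same call. Of 60 member probe sets, 47 were detected, 5 exceeded background in some hearts and 8 in none. All probe sets were detected in 9 of the 17 genes that have more than 1. Acadl had 10.39 ± 0.15 by the used probe set and 4.46 ± 0.24, below background in every heart, by the other. Crat had 7.48 ± 0.23 and 4.94 ± 0.17 in the same way. Fabp4 had 2 detected probe sets (7.17 ± 0.24 and 6.62 ± 0.25) and 2 below background in every heart (4.25 ± 0.22 and 4.19 ± 0.14). Acsl4 had the used probe set above background in 4 hearts and 2 probe sets (4.36 ± 0.27 and 4.78 ± 0.29) above it in none. A gene below background on 1 probe set, such as Ppara or Acot2, may thus still be expressed.

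**Figure D4:**
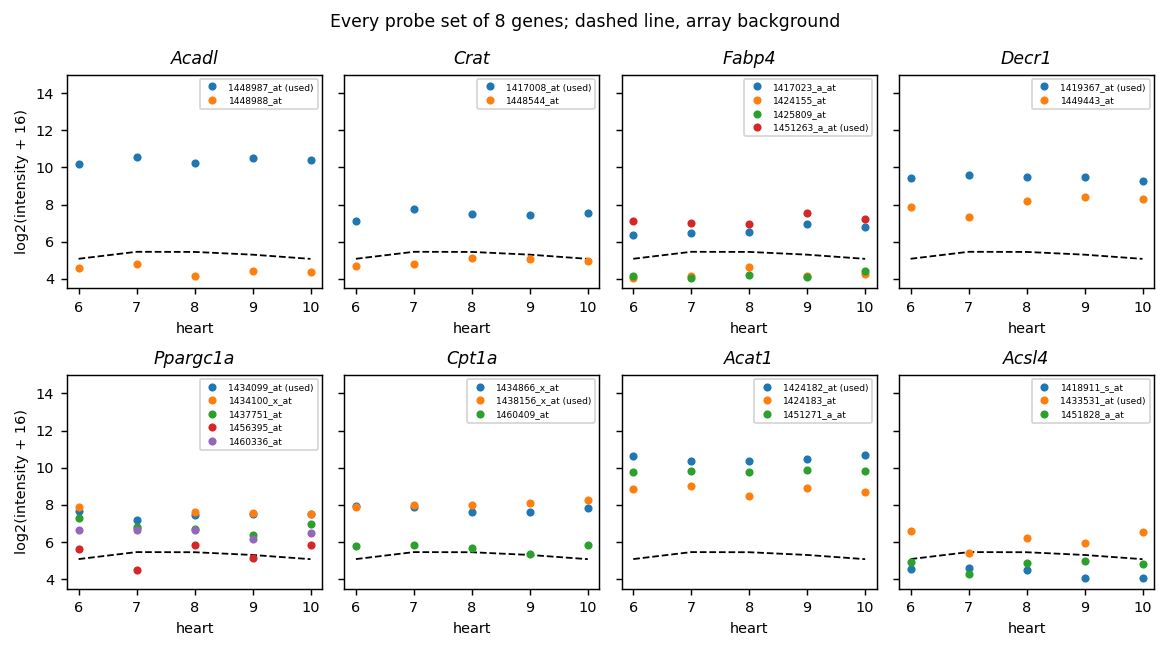
Level, log2(intensity + 16), of every probe set (colours) of 8 genes in hearts 6 to 10, with the background of each array as a dashed line. The second probe sets of Acadl and Crat and a pair of Fabp4 probe sets lie below the line in every heart, and all probe sets of Cpt1a, Acat1 and Decr1 lie above it.

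Beyond the list, 102 further genes of lipid handling were measured, of which 66 (64.7%) were detected, beside 51.9% of all genes. Of 17 further uptake genes, 7 were detected (41.2%). The transporters Slc27a1 (4.73 ± 0.34), Slc27a2 (4.69 ± 0.41) and Slc27a3 (5.14 ± 0.21) were above background in 1, 0 and 3 hearts. Of 15 genes of synthesis and malonyl-CoA, which inhibits entry through Cpt1, 12 were detected (80%). The carboxylase Acacb, whose product is known to restrain oxidation in muscle, had 8.95 ± 0.43, heart 6 being lowest at 8.20 while the rest spanned 8.99 to 9.24. The cytosolic carboxylase Acaca (4.46 ± 0.33) was below background in every heart, and Mlycd (5.14 ± 0.25), which degrades malonyl-CoA, was above it in 2.

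Storage and peroxisomal oxidation were detected in part. Of 14 genes of lipid droplets, 7 were detected (50%), near the 51.9% of all genes. The droplet coat gene Plin2 had 8.41 ± 0.24, Plin3 (5.46 ± 0.24) was above background in 4 hearts and Plin4 (4.38 ± 0.33) in none. Of 14 peroxisomal genes, 9 were detected (64.3%). The oxidases Acox2 (4.46 ± 0.20) and Acox3 (4.11 ± 0.10), the bifunctional enzyme Ehhadh (4.67 ± 0.33) and the import receptor Pex5 were the genes below background in every heart.

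Genes of neighbouring fuel pathways were detected with 1 exception in each list. Of 11 genes of ketone and branched chain oxidation, 10 were detected (90.9%, against 51.9% of all genes). The ketone-using transferase Oxct1 had 10.69 ± 0.11 and the isovaleryl dehydrogenase Ivd 7.46 ± 0.17. The ketone body dehydrogenase Bdh1 (4.70 ± 0.28) was the gene below background. Of 12 genes of uncoupling and fuel choice, 11 were detected (91.7%), with Ucp3 below background in every heart. The kinases that restrain pyruvate oxidation had levels of 9.17 ± 0.42 for Pdk1, 6.99 ± 0.38 for Pdk2 and 8.10 ± 0.30 for Pdk3. None of the 102 genes passed the variance test against limma's prior (0 called, lowest adjusted p = 0.544), and 3 had an unadjusted p under 0.05.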

How the data were processed

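Total RNA of single E12.5 hearts (10 ng) was amplified and biotin-labelled by a WT-Ovation Pico protocol, per the labels. The deposited values are linear intensities, 1 per probe set in each heart. GCOS is named in the submitters' processing notes, with version and settings not given in the sources used here. On every array the 2% trimmed mean is the same. Amplification from little RNA can add noise for weak transcripts, and the shared scale removes differences in total signal.

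Arrays were brought to 1 trimmed mean and analysed as log2(intensity + 16), which understates differences of weak genes. Of 22690 probe sets, 691 carry several symbols and 1606 are not listed in the annotation, and these were left out with 64 controls. The probe set of highest mean stood for a gene. limma 3.58.1 in R 4.3.3 gave a robust prior variance with 12.06 degrees of freedom, against 4 per gene, and the threshold was an adjusted p of 0.05. The variance test was tested on simulated data. There it missed most genes shifted in 1 heart by more than any member was here, and found all with a still larger shift. The hearts are 5 samples of 1 group, so no contrast existed, and the labels do not say whether they share a litter. Their spread may be in part technical, and the number of arrays limits precision.

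Members and lists were chosen with earlier results of these data known. All measured members, and the first 3 measured genes of each further lipid and marker list, were named. Other names were picked with their values known. Alternatives tried were no rescaling, quantile normalization, offsets of 1 and 64, probe sets averaged, _x_at and _s_at probe sets left out, each heart left out, background at the 90th or 99th percentile, detection in 3 hearts, dim genes left out, and a prior without robust estimation or trend. Promoter sequences are RefSeq's.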

Additional observations from a re-analysis of the deposited data

Results flagged for a closer look

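Dixon's test was applied to 118 values to find single hearts that stood apart. These were 60 member probe sets, 21 further lipid genes and 21 cell type markers (the first 3 measured of each list), 15 measures of the arrays and the members' median deviation. Other genes of those lists were not tested. It divides the distance from the outermost heart to its neighbour by the full range, with a critical value of 0.71 for 5 hearts. The ratio passed for 9 values, and chance alone gives about 1 in 20.

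Among 60 member probe sets, 3 passed, which is about the share that chance alone gives. Eci1 was highest in heart 7 (9.63 against 9.20 to 9.32, ratio 0.728), and Eci2 was lowest in heart 8 (9.80 against 10.31 to 10.51, ratio 0.721). A probe set of Acsl4 that was below background in every heart was lowest in heart 7 (4.28, ratio 0.758).

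Outside the list, Acacb was lowest in heart 6 (8.20, ratio 0.757), and Bdh1 (4.21, ratio 0.744) and Pecam1 (4.15, ratio 0.774) were lowest in heart 7. Lep was highest in heart 7 (4.40, ratio 0.746), Myog lowest in heart 9 (4.06, ratio 0.731) and Myf5 highest in heart 8 (4.43, ratio 0.830). Of these, Bdh1, Lep, Myog and Myf5 were below background in every heart.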

How the results depend on the processing

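The count of 29 members detected was the same without rescaling, with quantile normalization, at offsets of 1 and 64 and with probe sets averaged. It was 27 of 30 measured without _x_at and _s_at probe sets, 30 at the 90th and 28 at the 99th percentile of background, where Acads was lost, and 30 when 3 hearts sufficed. With 1 heart left out it ranged from 29 to 30, and the count of further lipid genes from 66 to 68 of 102. That count was 52 to 76 under the other alternatives. No member was called variable under any alternative run, with 0 to 3 members at an unadjusted p under 0.05. With probe sets averaged, 17 of 32 levels moved by more than 1 SD. These were all 17 of the genes with more than 1 probe set, since averaging cannot change a gene that has 1. No paired analysis was possible because the hearts form 1 group. Weak signal limits Ppara and Acot2, below background in every heart, and Acsl4 in heart 7.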
